A study of Homo sapiens with 26 samples.

Results

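Very broad DNMT3B domains are stretches of 10000 bp or more that the authors called as 1 peak each for FLAG-tagged DNMT3B in HCT116, a human colorectal cancer cell line. They were selected on the measured width of the peaks in the merged FLAG-DNMT3B list, and 841 of its 15909 peaks qualified (5.29%, 95% Wilson interval 4.95% to 5.64%, which covers counting error only). These 841 domains held 13.2 Mb, or 23.01% of the 57.2 Mb in all DNMT3B peaks. Genes were the named transcripts of the authors' assembled annotation, in which 26281 gene symbols occur, and all coordinates of the domains are in the hg19 build.

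The study mapped ZBTB24 and DNMT3B with a FLAG antibody and measured RNA after either protein was lost or ZBTB24 was added. The FLAG-DNMT3B group holds 2 ChIP libraries, FLAG-ZBTB24 3 and the tag-only control 2, each with an input library. RNA libraries number 3 with a non-targeting hairpin (shNT), 3 with a hairpin against ZBTB24 (shZBTB24), 2 with the tag alone, 2 with FLAG-ZBTB24, 1 from a DNMT3B genetic knockout line and 1 from wild-type HCT116. All ChIP and hairpin lines were made by lentiviral infection and puromycin selection, and each FLAG line is a single-cell clone that makes the tagged protein in addition to its own. The domains therefore describe added DNMT3B in selected clones. The 2 FLAG-DNMT3B libraries were merged by the authors into 1 list, so no value per library and no depth could be given, and whether a domain was present in each library was not tested. Values of the tag-only and input libraries over the domains were not analysed here. The cell type could not be checked on the expression tables, because they list only part of the loci. Of 15 colon epithelial marker genes, CDX2, CDH1, KRT20 and CLDN3 had listed values in the groups compared here.

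DNMT3B is a de novo DNA methyltransferase, which adds methyl groups to cytosines of CpG pairs that carry none. Its PWWP domain binds histone H3 methylated at lysine 36, a mark laid along the bodies of transcribed genes, while promoters rich in CpG pairs are usually kept free of DNA methylation. ZBTB24, a zinc finger transcription factor, and DNMT3B are both mutated in ICF syndrome, an inherited immunodeficiency with loss of methylation near centromeres.

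The domains left out the starts of their host genes, and the promoters of hosts were rich in CpG pairs. The sequences of 4 of them are shown with each CpG in capitals, from RefSeq and the GRCh38.p14 build, 5′ to 3′ on the strand of the gene, and cover the 250 bases before the start. UBR4 (a ubiquitin ligase), EP300 (a histone acetyltransferase) and PDCD11 (a ribosome biogenesis factor) hold 3 of the 15 widest domains, and ZBTB24 is the gene that the study perturbed.
UBR4, chr1:19210267-19210516, minus strand: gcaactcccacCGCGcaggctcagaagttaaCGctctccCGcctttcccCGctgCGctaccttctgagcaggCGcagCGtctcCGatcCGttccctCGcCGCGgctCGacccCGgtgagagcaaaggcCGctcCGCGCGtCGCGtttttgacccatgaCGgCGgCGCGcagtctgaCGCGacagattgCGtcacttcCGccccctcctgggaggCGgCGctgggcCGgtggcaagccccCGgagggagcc
EP300, chr22:41092342-41092591, plus strand: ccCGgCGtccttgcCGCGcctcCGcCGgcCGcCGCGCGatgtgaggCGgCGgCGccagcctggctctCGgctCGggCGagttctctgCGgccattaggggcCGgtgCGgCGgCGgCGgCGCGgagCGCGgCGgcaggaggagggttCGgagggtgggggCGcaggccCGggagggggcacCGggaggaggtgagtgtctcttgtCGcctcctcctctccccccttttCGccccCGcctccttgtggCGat
PDCD11, chr10:103396376-103396625, plus strand: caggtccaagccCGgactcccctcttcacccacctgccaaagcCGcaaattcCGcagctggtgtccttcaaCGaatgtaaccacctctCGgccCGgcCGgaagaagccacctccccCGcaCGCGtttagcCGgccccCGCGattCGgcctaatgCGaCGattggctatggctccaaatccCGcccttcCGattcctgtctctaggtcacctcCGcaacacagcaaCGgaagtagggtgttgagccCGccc
ZBTB24, chr6:109483220-109483469, minus strand: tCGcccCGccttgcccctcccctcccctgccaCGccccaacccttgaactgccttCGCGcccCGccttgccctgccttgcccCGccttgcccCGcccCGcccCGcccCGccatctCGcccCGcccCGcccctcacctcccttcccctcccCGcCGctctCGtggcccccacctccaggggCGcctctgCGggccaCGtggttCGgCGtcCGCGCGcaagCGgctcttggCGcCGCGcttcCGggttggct
These promoters held 33, 35, 21 and 30 CpG pairs. The first domain began 8183 bp after the start of UBR4, 30787 bp after that of EP300, 1753 bp after that of PDCD11 and 1571 bp after that of ZBTB24, so the domains did not reach any of the 4 promoters.

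Of 704 protein-coding host genes matched to RefSeq, 582 (82.7%) had a promoter sequence in the RefSeq table, with a median of 21 CpG pairs (quartiles 16.5 and 28) in 250 bases. Over all 15843 protein-coding genes of that table the median was 17 (quartiles 7 and 25). At least 10 CpG pairs were counted in 94.2% of host promoters and in 69.5% of all protein-coding promoters of the table. Genes with narrower DNMT3B peaks only had a median of 22 and a share of 91.4%, so CpG-rich promoters were shared by hosts of domains and other genes with DNMT3B peaks.

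By width the domains ran from 10002 to 75667 bp, with a median of 13161 bp and quartiles of 11350 and 16779 bp. The other 15068 peaks had a median width of 2352 bp. The distribution thinned quickly, with 138 domains of 20000 bp or more, 42 of 30000 bp or more and 7 of 50000 bp or more. No gap in width marked the threshold: the narrowest domains, in HEATR1, AREL1 and WAPAL, were 10002, 10007 and 10025 bp wide, and the widest peaks left out, in TMEM209, CD44 and MCM8, were 9999, 9994 and 9988 bp wide. The authors' peak score, of a kind not given in the sources used here, comes from the same ChIP as the width that chose the domains. It had a median of 3.54 for domains (range 2.51 to 4.65) and 3.39 for narrower peaks (upper quartile 3.56, range 2.18 to 5.41). Width and score had a Spearman rho of 0.21 across all 15909 peaks and of 0.16 across the 841 domains. These regions share libraries, so both are descriptions.

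Nearly all domains lay in genes. A named gene was overlapped by 839 of the 841 (99.8%, 95% Wilson interval 99.1% to 99.9%), and by 97.8% of narrower peaks. The exceptions were chr2:220777933-220791766, 13834 bp wide, and chr15:43961719-43975371, 13653 bp wide. For each domain the gene that shared the most bases was taken as its host, which gave 727 host symbols at 731 loci, or 2.77% of all named genes. A single named gene was overlapped by 734 domains, and 756 of 839 (90.1%) lay wholly inside their host. Of the hosts matched to RefSeq, 97.9% were protein-coding, against 75.5% of all named genes. Genes with narrower peaks only stood at 93.7%, so most of this difference was shared by other genes with DNMT3B peaks.

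Domains kept clear of host starts and ran closer to host ends. The near edge of a domain lay a median of 16703 bp after the start of the host (quartiles 5965.5 and 37111.5 bp), and the far edge lay a median of 9544 bp before its end. Only 3 of 839 domains crossed the start of their host, and 1 more began less than 1000 bp after it. Those 3 hosts were CROCCP2, SMG1P2 and PMS2CL, all of them pseudogenes with near-identical copies elsewhere, so the placement of reads there is uncertain. In contrast, 171 domains (20.4%, 95% Wilson interval 17.8% to 23.2%) began between 1000 and 5000 bp after the start, a zone where 9.54% of narrower peaks began. A wider region comes nearer to a start more easily, and width chose the domains.

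Read base by base, the coverage of host genes by domains rose steeply behind the start. At the start itself 0.41% of the 731 host loci were covered by a domain, at 1000 bp into the gene 0.547%, at 2000 bp 2.74%, at 3000 bp 9.44% and at 5000 bp 23.8%. The share reached 48.8% of 723 loci at 14000 bp and was 21.5% of 246 loci at 60000 bp. Only loci longer than each distance were counted, so these shares describe different sets of genes. Every host holds a stretch of 10000 bp or more by the rule, which partly sets the height and place of this maximum. From the other end, 58.7% of loci were covered 12000 bp before the gene end, 41.7% at 5000 bp before it, 11.2% at the end itself and 4.10% at 2000 bp beyond it. Coverage by domains was thus highest well inside the gene, near 0 at its start and low past its end. Narrower peaks of genes without a domain showed the same empty start, with 0.345% of 4930 loci covered at the start and 20.2% of 4891 loci at 5000 bp.

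**Figure D1:**
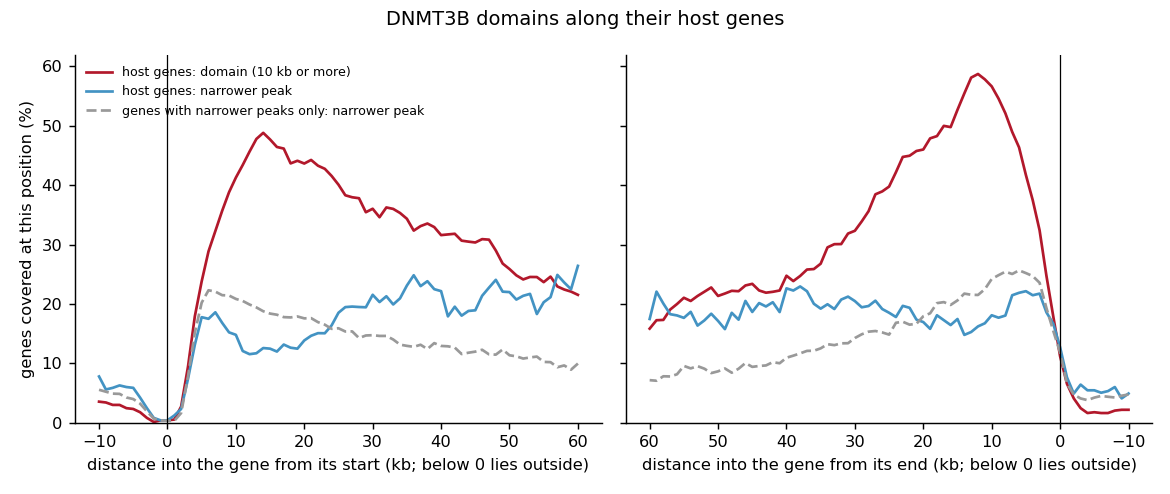
Share of gene loci covered by a DNMT3B peak (vertical axis, percent) against the distance into the gene from its start (left) or end (right), in kb, for domains and narrower peaks in the 731 host loci and for narrower peaks in genes with narrower peaks only. Coverage by domains is 0.41% at the start, 48.8% at 14000 bp into the gene and 58.7% at 12000 bp before the end. At each distance inside the gene only loci longer than that distance are counted.

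The end of the gene was a softer border than the start. Past the end of the host ran 80 domains (9.54%, 95% Wilson interval 7.73% to 11.7%), and 3.75% of narrower peaks did. A wider region runs past an end more easily, and width chose the domains, so these shares are not compared. The overrun of domains had a median of 1353.5 bp. It was longest at UBE2Z (13692 bp), a ubiquitin-conjugating enzyme gene, and at SMIM7 (10062 bp). Of these 80 domains, 19 overlapped another named gene. At NUP85, a nuclear pore subunit, the domain began 3476 bp after the start in intron 2 and ended 3493 bp past the gene end.

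In relative terms the midpoints of domains lay at a median of 58.8% of the way through the host, and those of narrower peaks at 61.3%. A domain covered a median of 30.3% of its host and a narrower peak 4.04%, so width keeps the midpoint of a domain inside its gene away from both ends. The 4.41% of domain midpoints in the first 20% of the gene and the 16.9% in the last 20% are therefore not compared with narrower peaks. The near edge lay in an intron of the longest transcript for 784 domains and in an exon for 52, and it lay in intron 1 for 135 (16.1%). Exons made up 8.65% of the domain bases in hosts and 6.85% of the other host bases, but this pooled difference was not shared by most hosts: 283 of 731 loci (38.7%) had the higher exonic share inside domains.

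Where a start of any gene did lie in a domain, it was mostly that of a small RNA nested in the host. Within 1000 bp of a named transcript start came 67 domains (7.97%, 95% Wilson interval 6.32% to 9.99%) and 2.01% of narrower peaks. Per megabase this difference shrank, to 4.48 starts inside domains and 3.77 inside narrower peaks, against 24.9 over the whole of the host loci. The outermost starts of 54 genes lay inside domains, and 42 of these were genes of miRNAs (22), snoRNAs (15) or small Cajal body RNAs (5). Of all named genes matched to RefSeq, 7.22% were miRNA genes and 1.47% snoRNA genes. Starts inside narrower peaks or elsewhere in host genes were not sorted by kind. Whether the share of small RNAs is particular to domains was therefore not tested. Protein-coding genes with their outermost start in a domain were MICAL1, next to ZBTB24, and ANKRD61, inside EIF2AK1.

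Of the 22 miRNA genes, 18 lay on the strand of their host and 19 had a mature sequence in RefSeq. Their levels were not measured by the files used here. One seed (bases 2 to 8) was shared between genes, by miR-30c and miR-30e, whose genes both start in the domain of NFYC, a subunit of the CCAAT-binding factor NF-Y, at chr1:41218692-41229639. MIR194-1 and MIR215 start together in the domain of IARS2, on its other strand, and MIR32 in that of TMEM245. The mature strands are shown with the seed in capitals.
hsa-miR-30c-5p: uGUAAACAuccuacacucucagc
hsa-miR-30e-5p: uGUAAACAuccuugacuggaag
hsa-miR-194-5p: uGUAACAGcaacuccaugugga
hsa-miR-215-5p: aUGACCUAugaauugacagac
hsa-miR-32-5p: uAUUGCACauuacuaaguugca
Apart from the shared seed GUAAACA, these sequences show that the domains held miRNA genes of different seed families.

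Hosts were genes of middle length. The median host was 44775 bp long, against 36751 bp for genes with narrower peaks only and 16772 bp for all named genes. Among genes of 30000 to 50000 bp, 8.57% (256 of 2987) hosted a domain, the highest share of any length class. The share was 6.11% from 50000 to 100000 bp, 4.52% from 100000 to 200000 bp and 0.846% at 400000 bp and above. Below 10000 bp, where no domain can lie inside a gene, 2 of 10127 genes were hosts. Length alone thus did not order the genes, since the longest class had a lower share of hosts than the middle one.

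**Figure D2:**
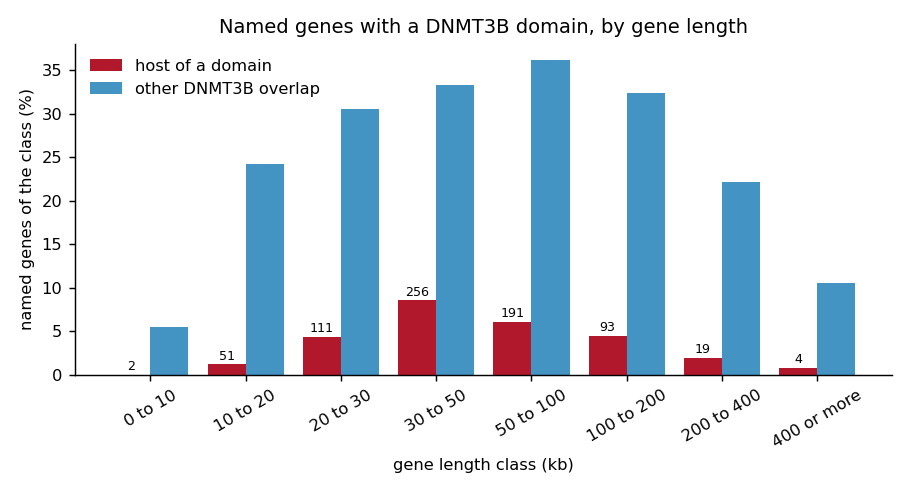
Percent of named genes in each length class (kb) that host a domain (red, with the number of hosts above the bar) or that have another DNMT3B overlap (blue). The share of hosts is highest at 8.57% for genes of 30 to 50 kb.

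Most hosts held 1 domain (645 of 731 loci), 67 held 2, 17 held 3, 1 held 4 and 1 held 5. Domains covered a median of 35.9% of a host locus, and all DNMT3B peaks together a median of 56.7%. At least 50% was covered by domains in 234 loci, at least 75% in 61 and at least 90% in 11. In 595 of the 731 loci narrower peaks were found as well. Between neighbouring domains of 1 host there were 108 gaps, with a median of 4081 bp and a minimum of 91 bp. In 25 cases the gap was under 1000 bp. Joining all DNMT3B peaks closer than that would give 1139 domains.

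PRKDC, the catalytic subunit of DNA-dependent protein kinase, which joins broken DNA ends, was the host with the most domains. Its 187075 bp gene on chromosome 8 (48685669 to 48872743, minus strand) held 5 domains of 37409, 20739, 33195, 30434 and 13531 bp in the order of transcription. Together these made 135308 bp or 72.3% of the gene, and all DNMT3B peaks 85.3%. The first domain began 14659 bp after the start, in intron 7, and the last ended 4117 bp before the gene end. From intron 7 on, the gene was thus mostly covered, with gaps of 4823 to 12342 bp between domains, and 68 of 86 exons were touched.

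UBR4 on chromosome 1 (19401000 to 19536746, minus strand) held domains of 25774, 55197 and 21485 bp, which covered 75.5% of its 135747 bp. The middle one, chr1:19439019-19494215, was the widest domain outside the NBPF family. MDN1, an ATPase of ribosome assembly, was overlapped by 4 domains with 90992 bp (51.4% of the gene), and TRRAP, the scaffold of histone acetyltransferase complexes, by 4 with 64545 bp (47.9%). In TRRAP the first domain began 3163 bp after the start and the last ended 43852 bp before the end, and all DNMT3B peaks together covered 78.3%. ESRP1, an epithelial splicing regulator, was nearly filled, with 3 domains over 91.2% of its 66331 bp.

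The single widest domain, of 75667 bp (chr1:145293937-145369603), and 2 more of the 7 widest lay in genes of the NBPF family. These are near-identical copies, so reads cannot be placed among them with certainty, and some of their annotated spans chain several copies, up to 2320934 bp. NBPF genes hosted 13 of the 841 domains. Outside that family the widest domains after UBR4 lay in FANCA, a Fanconi anaemia repair gene (54300 bp), EP300 (52265 bp), CCAR1 (50790 bp), SBNO1 (48412 bp), PDCD11 (45804 bp) and USP36, a nucleolar deubiquitinase (44920 bp). The EP300 domain, chr22:41519401-41571665, ran from intron 2 to intron 29 of 31 exons. The highest scores belonged to domains in the nuclear pore genes NUP205 (4.65) and NUP85 (4.57).

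Among genes of 20000 bp or more, apart from an NBPF pseudogene, domains covered most of USP36 (93.6%), EDRF1 (92.9%), ZBTB24 (92.4%), PDCD11 (92.3%), ESRP1 (91.2%), KPNB1 (90.7%), KIAA0100 (90.7%), HEATR6 (90.6%) and POP1 (89.7%). In these genes 1 to 3 domains ran from near the start to near or past the end. ZBTB24 is the shortest of them, at 20722 bp (chromosome 6, 109783719 to 109804440, minus strand), and its 19305 bp domain ran from exon 2 to 154 bp past its end, over 6 of its 7 exons. At its promoter the authors' ZBTB24 list held a peak with a score of 8.03, upstream of the domain. DNMT3B's own gene held a domain of 13457 bp, from intron 9 to intron 19. The lines carry an added copy of the DNMT3B coding sequence, and reads of that copy over exons cannot be told apart from reads of the gene.

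Gene lists were counted by membership among hosts, beside the 2.77% of all named genes. That background includes 10127 genes under 10000 bp, and neither length nor expression was matched. The lists were chosen with earlier results of these data known, so their shares are descriptions. Nuclear pore and transport genes, which build and use the gates of the nuclear envelope, had 19 hosts of 31 members (61.3%), and the other 12 all had another DNMT3B overlap. KPNB1, which encodes importin beta, was covered by its domain for 90.7%, NUP85 for 88.5%, TPR for 61.3%, XPO5 for 60.9% and NUP188 for 60.8%. The least covered host of the list was NUP133, at 15.2%. The median member was 60350 bp long, in a class where 6.11% of all genes were hosts.

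Splicing factors had 11 hosts of 28 (39.3%), at a median length of 35763.5 bp, in a class where 8.57% of all genes were hosts. SRRM1 was covered for 85.4%, the helicase gene DHX9 for 83.5%, SF3B3 for 80.6% and SNRNP200 for 79.7%, all with 1 or 2 domains. Chromatin genes were also frequent: remodellers of the SWI/SNF, CHD and INO80 families had 9 hosts of 31 (29.0%), with CHD8 at 85.7% and ARID1A at 31.0%. The median remodeller gene was 106345 bp long, in a class where 4.52% of all genes were hosts. Acetyltransferases and deacetylases had 5 of 22, with EP300, TRRAP, SIN3A, KAT7 and HDAC3. Genes that write, erase or read H3K36 methylation had 5 of 29, with KDM4A, a demethylase, at 75.7%. The median lengths of these last lists, 86936.5 and 55393 bp, fall in a class where 6.11% of all genes were hosts.

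Ubiquitin ligases had 9 hosts of 30, Mediator and elongation factors 8 of 32, DNA damage and repair genes 7 of 33, and cohesin and condensin genes 5 of 22. The median lengths of these lists ran from 49756.5 to 152781.5 bp, in classes where 4.52% to 8.57% of all genes were hosts. Of 8 genes of the DNA methylation machinery, DNMT1 and DNMT3B were hosts. The Wnt pathway had 2 hosts of 27 (7.41%), TCF7L2 and TNKS2. Its median member was 65083 bp long, in a class where 6.11% of all genes were hosts. Ribosomal proteins (0 of 40), colon epithelial markers (0 of 15) and long neuronal genes (0 of 25) had none, which allows shares of up to 7.5%, 20% and 12%. Ribosomal protein genes are short, with a median of 4519 bp, and most could not hold a domain. Zinc finger genes named ZNF had 3 hosts of 567 (0.529%), namely ZNF106, ZNF276 and ZNF343. Their median length was 20526 bp, in a class where 4.39% of all genes were hosts. Of the 4 ICF syndrome genes, DNMT3B and ZBTB24 were hosts.

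**Figure D3:**
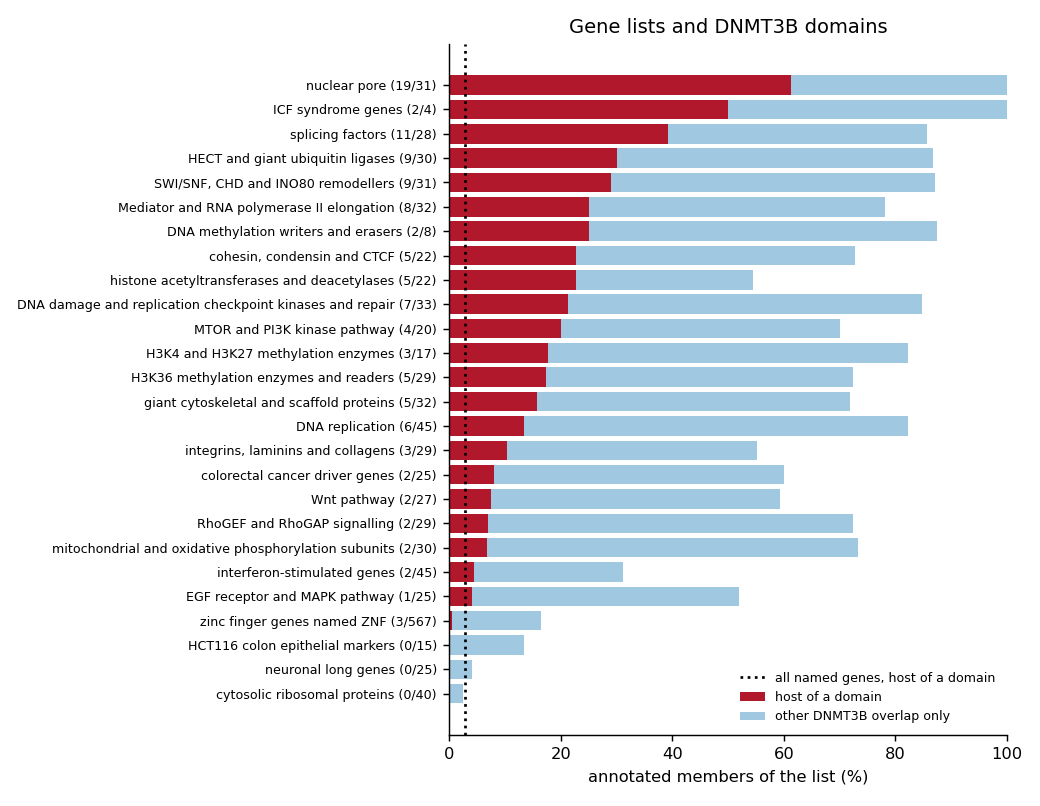
Percent of the annotated members of 26 gene lists that host a domain (red) or have another DNMT3B overlap only (blue), with hosts and members in brackets. The dotted line marks the 2.77% of all named genes that host a domain; nuclear pore and transport genes reach 61.3%.

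Domains were unevenly spread over the chromosomes. On chromosome 17 they filled 3.97% of the named gene length, on chromosome 16 2.52%, on 22 2.31% and on 1 1.80%, against 1.01% over chromosomes 1 to 22 and X. Chromosome 17 held 108 domains, and 6.36% of its named genes were hosts. The lowest autosomal values were 0.261% on chromosome 4, 0.268% on 13 and 0.396% on 18. Narrower peaks were also densest on chromosome 17, at 7.91% of gene length. Chromosome X held 17 DNMT3B peaks and no domain in 1066 named genes. Within chromosomes, among 20 Mb bins with 100 or more peaks, domains made up the largest share of peaks on chromosome 10 from 100 to 120 Mb (28 of 182, 15.4%) and on chromosome 17 from 40 to 60 Mb (45 of 347, 13.0%). DNA copy number of HCT116 along the chromosomes was not examined, so its part in this spread was not tested.

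**Figure D4:**
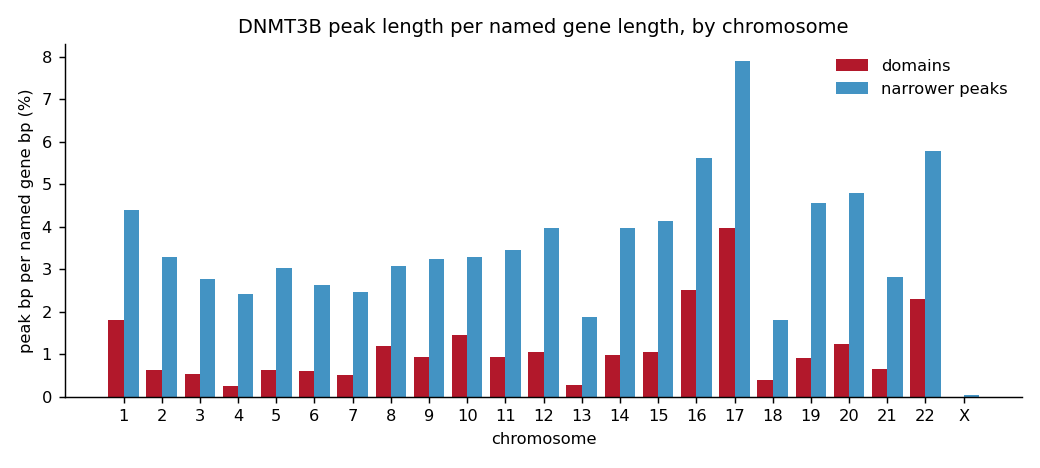
Length of domains (red) and narrower peaks (blue) as a percent of the named gene length on each chromosome. Domains fill 3.97% on chromosome 17, 0.261% on chromosome 4 and none on chromosome X.

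ZBTB24 peaks hardly met the domains. Of the 841 domains 1 overlapped any of the 6173 peaks of the authors' merged FLAG-ZBTB24 list (0.119%, 95% Wilson interval 0.021% to 0.67%). It lies in EIF3A, a translation initiation factor gene, at chr10:120810922-120831190, around a ZBTB24 peak at chr10:120816412-120816702 with a score of 6.34. Per megabase this is 0.0759 ZBTB24 peaks in domains and 0.0908 in narrower DNMT3B peaks. At the level of the gene, 52 of 727 host genes (7.15%, 95% Wilson interval 5.50% to 9.26%) had a ZBTB24 peak at a start. That share was 6.49% (5.85% to 7.19%) for genes with narrower peaks only and 2.90% for genes without a DNMT3B peak. The intervals of both groups with DNMT3B peaks overlap, and whether hosts differ from other DNMT3B genes was not tested.

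The highest ZBTB24 scores at host starts were those of COPB1 (16.3), MTHFD1 (14.8), C14orf159 (13.5), RIOK3 (13.0) and KPNA4 (12.6). Their first domains began 29420, 23844, 43474, 16966 and 36812 bp into the gene. The peak and the domain were thus far apart in each.

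The octamer CAGGACCT, or AGGTCCTG on the other strand, is known as a core of the ZBTB24 binding motif. It was found in the 250 bases before the start in 0.687% of host promoters (4 of 582), against 1.64% of all protein-coding promoters of the RefSeq table. Of 40 hosts with a ZBTB24 peak and a promoter sequence, 2 held it, TMEM245 and DMTF1, a cyclin D-binding transcription factor. Their promoters are shown with the octamer in capitals, from the same build, on the strand of the gene.
TMEM245, chr9:109119948-109120197, minus strand: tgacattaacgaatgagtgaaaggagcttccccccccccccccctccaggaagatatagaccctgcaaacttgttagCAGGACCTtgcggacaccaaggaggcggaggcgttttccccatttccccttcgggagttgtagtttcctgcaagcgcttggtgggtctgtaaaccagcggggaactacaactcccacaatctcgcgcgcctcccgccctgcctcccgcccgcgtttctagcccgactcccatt
DMTF1, chr7:87152203-87152452, plus strand: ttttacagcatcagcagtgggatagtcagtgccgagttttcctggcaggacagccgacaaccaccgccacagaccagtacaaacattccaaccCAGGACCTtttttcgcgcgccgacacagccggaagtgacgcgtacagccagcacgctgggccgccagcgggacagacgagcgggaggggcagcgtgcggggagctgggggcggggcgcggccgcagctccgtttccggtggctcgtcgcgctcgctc
The ZBTB24 peaks at these starts had scores of 8.72 and 5.68, and the first domains began 64662 and 10722 bp into the genes. Among all genes with a ZBTB24 peak at a start, 6.25% of promoters held the octamer in this window.

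Expression could be followed only where the authors' deposited tables list a locus. Of the 824 symbols overlapped by domains, 138 were listed in at least 1 of the 3 tables. Each table gives 1 pooled FPKM (fragments normalised to transcript length and library size) per group, a log2 fold change and a q, an adjusted p, and the threshold used here was a q under 0.05. The labels do not name separate cultures behind the libraries of a group, so the p and q describe the spread of these libraries alone, and that spread may be technical.

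Listed loci with DNMT3B peaks of either class had higher FPKM than loci without one. In the authors' deposited table for shZBTB24, the 75 loci with domain genes had a median of 24.1 FPKM in shNT cells, against 14.1 FPKM for loci with narrower peaks only, 5.14 FPKM for loci without a DNMT3B peak and 8.07 FPKM over all 1965 listed loci. Of 182 loci under 1 FPKM none had a domain gene, which allows a share of up to 1.65%. The share was 0.906% from 1 to 5 FPKM, 4.15% from 5 to 20 FPKM, 8.42% from 20 to 50 FPKM and 6.78% at 50 FPKM and above per the authors' deposited table. Loci with narrower peaks only made up 3.30%, 15.4%, 38.8%, 48.1% and 38.6% of the same 5 classes, so they too were rarest at low FPKM. The table lists only loci past a fold change. At an unadjusted p under 0.05, 53.5% of them rose and 43.5% fell per the authors' deposited table, so nearly all have a low p too. These shares therefore describe listed loci.

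With ZBTB24 knocked down, 46 of the 75 listed domain loci (61.3%) had higher and 29 lower values per the authors' deposited table. Higher values were found in 61.1% of loci with narrower peaks only and in 55.0% of all listed loci, so this share is not particular to domains. Past the threshold were 7 rises and 4 falls, which is 9.33% and 5.33% of the domain loci, against 12.2% rises and 9.82% falls over all listed loci and 14.8% and 8.56% for loci with narrower peaks only. The counts of domain loci thus stood near or below the background. Their median log2 fold change was 0.52, against 0.55 over the whole authors' deposited table. Since only loci past a fold change are listed, such a signed median mostly shows which direction prevails, and it is not compared. The rows used here hold no ZBTB24 locus, which leaves the knockdown unchecked. Of the colon epithelial markers, CDX2 rose from 6.90 to 18.8 FPKM and CDH1 fell from 46.3 to 23.2 FPKM per the authors' deposited table (q = 0.00493 for each). Their part in the changes of domain genes was not tested.

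DDX58, which encodes the RNA sensor RIG-I, rose from 8.80 to 22.97 FPKM per the authors' deposited table, with a log2 fold change of 1.38 and q = 0.00493. POP1, a subunit of RNase P, rose from 3.30 to 7.65 FPKM, and RTCA, an RNA cyclase, from 19.0 to 38.8 FPKM per the authors' deposited table. SLK, a kinase, and NAE1, of the NEDD8 pathway, rose with log2 fold changes of 0.88 and 0.80 per the authors' deposited table.

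Falls past the threshold were smaller in number. ERN1, which encodes the endoplasmic reticulum stress sensor IRE1, fell from 8.02 to 3.33 FPKM per the authors' deposited table, with a log2 fold change of -1.27 and q = 0.0139. NFRKB, of the INO80 complex, was at 25.7 and 14.3 FPKM, GLUD1, glutamate dehydrogenase, at 33.0 and 18.8 FPKM, and the condensin gene NCAPD2 at 31.2 and 18.2 FPKM per the authors' deposited table. The largest change of a listed domain locus, that of the pseudogene MRPL45P2 with THCAT158, had a log2 fold change of 2.07 and did not pass (q = 0.227 per the authors' deposited table).

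**Figure D5:**
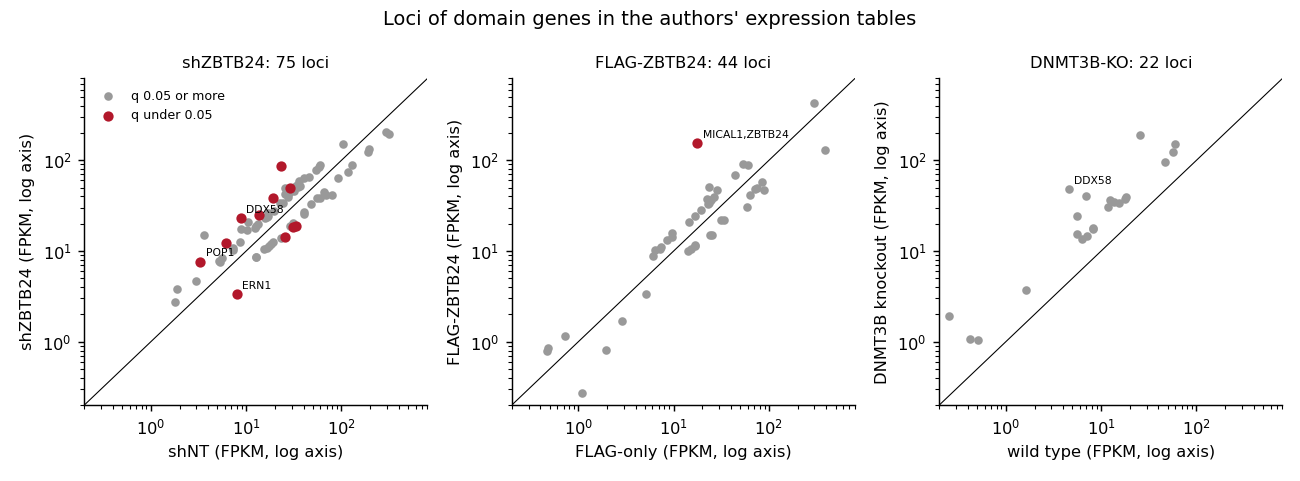
Pooled FPKM of the loci with domain genes in the 3 deposited tables, second group against first group on log axes, 1 point per locus, with loci under a q of 0.05 in red and the line of equal values in black. The shZBTB24 panel holds 75 loci with 11 past the threshold, the FLAG-ZBTB24 panel 44 with 1 and the DNMT3B-KO panel 22 with 0, all of them above the line.

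With FLAG-ZBTB24 added, 44 domain loci were listed, and 1 rose past the threshold per the authors' deposited table (background 0.228% rises and 0.342% falls, and 3.48% and 6.44% at an unadjusted p under 0.05). That locus joins MICAL1 and ZBTB24, and it went from 17.8 FPKM with the tag alone to 155 FPKM (log2 fold change 3.12, q = 0.0192 per the authors' deposited table). It holds the gene of the added protein, so it checks the label and says nothing on the domain. No domain locus fell past the threshold, and 2 did at an unadjusted p under 0.05 per the authors' deposited table. NDRG1, a stress-induced gene, was at 388 and 129 FPKM (log2 fold change -1.58, q = 0.422) and HSPH1, a chaperone gene, at 59.3 and 30.4 FPKM per the authors' deposited table. The small RNA loci SCARNA5, SCARNA10 and SNORA12 had log2 fold changes of -2.01, -1.25 and 1.11 per the authors' deposited table, none past the threshold.

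In the DNMT3B knockout, where the enzyme of the domains is lost, 22 domain loci were listed and all were higher than in wild type per the authors' deposited table. That table lists under the knockout's label only loci with higher values, 2243 in all, so this direction is no result. None passed the threshold (background 0.312%) and 5 of 22 (22.7%) had an unadjusted p under 0.05, against 15.3% of loci with narrower peaks only and 9.36% of all listed loci per the authors' deposited table. Each group had 1 library, so nothing here has a replicate check, and the authors' q compares 2 libraries, not conditions. The median log2 fold change of domain loci was 1.25, against 2.12 over all listed loci, and their median wild-type level was 8.25 FPKM, against 0.695 FPKM per the authors' deposited table. Loci with narrower peaks only were close to the domain loci in both, at 1.33 and 5.12 FPKM, so neither value is particular to domains.

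DDX58 went from 4.61 FPKM in wild-type cells to 47.9 FPKM in knockout cells per the authors' deposited table, with a log2 fold change of 3.38 and q = 0.161. RNF213, a giant ubiquitin ligase, had a log2 fold change of 2.57, and the locus of the clock gene CRY2 with MAPK8IP1 one of 2.12 per the authors' deposited table. Under the knockout's label no DNMT3B row was found, which leaves the loss of its RNA unchecked there. The same table gives DNMT3B at 21.1 FPKM in wild type and 6.46 FPKM under a further label, DNMT3BKOshZB, that could be tied to none of the samples (q = 0.676 per the authors' deposited table). Domain genes listed for both shZBTB24 and the knockout included ADAR, CRY2, DDX58 and ZC3HAV1. ADAR, DDX58 and ZC3HAV1 had higher values in both per the authors' deposited tables. The CRY2 locus was lower with shZBTB24 (log2 fold change -0.64) and higher in the knockout per the authors' deposited tables. Of these genes only DDX58 passed the threshold with shZBTB24, and none did in the knockout. The share of all listed loci found in both was not counted.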

How the data were processed

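ChIP-seq and RNA-seq of HCT116 cells were used as deposited. The submitters' processing notes name MACS2, HISAT2, StringTie and Cufflinks and the hg19 build, with no versions given. Peak lists hold 1 score per peak from the authors. The authors' deposited tables give 1 pooled FPKM per group, a log2 fold change, and a p-value and q-value per locus, for part of the loci only. Depth is unknown, and the number of libraries limits the precision.

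Domains were peaks of at least 10000 bp, and their members and the gene lists were chosen with earlier results of these data known. Genes ran from the outermost start to the outermost end of named transcripts, and a start window of 1000 bp was used. The code that assigns hosts and distances was checked on planted genes and peaks. Shares carry 95% Wilson intervals, for counting error only, and a share of 0 carries the limit that 3 counts allow. No significance test was run, since no values per library exist. Regions, genes and loci are not replicates. Promoters came from RefSeq (GRCh38.p14), matched through gene IDs and synonyms, without the bases after the start. Matches for genes without a DNMT3B peak were under 80%, so that group is not compared.

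Named were hosts of the 15 widest and 10 highest-scoring domains, genes with 3 or more domains or among the 10 with most domain bases or largest covered share (20000 bp or more), list members in domains, domain genes past a q of 0.05 or among the 6 largest fold changes at 1 FPKM or more, the 5 highest ZBTB24 scores, and peaks at the threshold. A few genes that this rule names are not reported here. UBE2Z, SMIM7, NFYC, IARS2, TMEM245, DMTF1, MICAL1, ANKRD61 and the genes whose start a domain crossed were named after their values were seen. Python 3.11.15, pandas 2.3.3, numpy 2.4.6, scipy 1.17.1 and matplotlib 3.10.9 were used.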

Additional observations from a re-analysis of the deposited data

Results flagged for a closer look

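The knockout table holds rows under a label, DNMT3BKOshZB, that matches no sample given here, and the counts of rises and falls above did not use them. Under it, 48 loci of domain genes were listed, 4.32% of its 1112 rows, against 22 loci or 0.981% of the 2243 rows under the knockout's own label. Loci with narrower DNMT3B peaks only showed a like skew, with 29.0% of the first and 9.32% of the second. All 48, like all rows of that label, had lower values than wild type per the authors' deposited table. None had a q under 0.05 and 12 had an unadjusted p under 0.05. Their median log2 fold change was -1.39, against -1.48 over the label, and their median wild-type level was 53.5 FPKM, against 10.6 FPKM. ABCC2, a transporter gene, was at 29.7 and 1.33 FPKM and ACSL5, an acyl-CoA synthetase gene, at 86.9 and 6.33 FPKM per the authors' deposited table. DNMT3B itself was at 21.1 and 6.46 FPKM, and DNMT1, the maintenance methyltransferase, at 57.4 and 19.6 FPKM per the authors' deposited table. Over both labels together, 48 of 70 domain loci (68.6%) were lower, against 323 of 532 loci with narrower peaks only (60.7%) and 33.1% of all rows. Every row of this label was lower and every row of the knockout's label higher. These shares thus restate how many loci each label lists and are no result on direction. The 6 colon epithelial markers listed under that label, CDX2, CDH1, EPCAM, CLDN7, KRT8 and KRT18, were also lower, with log2 fold changes from -1.17 to -2.16 per the authors' deposited table. Which cells these rows describe cannot be told from the labels.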

How the results depend on the processing

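The merged list and the pooled values leave counting error as the one error that can be given, and the depth behind them is unknown, so a domain that was split or missed at low depth cannot be recognised. No paired analysis was possible because the tables hold 1 pooled value per group and the peak lists 1 merged list per factor. For the same reason leaving out single libraries was not possible. CpG density of the domains was not run, since no genome of the build was used.

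The number of domains followed the width chosen: 1316 at 8000 bp or more, 541 at 12000 bp and 291 at 15000 bp, in place of 841. At 15000 bp, 100% overlapped a named gene and 11.3% reached a named transcript start, with the same window of 1000 bp. A window of 0 bp gave 6.18% and one of 2000 bp gave 10.8%, in place of 7.97%. In hosts of 50000 bp or more the median midpoint lay at 63.1%, in place of 58.8%. With ZBTB24 peaks above the median score, 0% of domains overlapped one, which allows a share of up to 0.357%. At an unadjusted p under 0.05, shZBTB24 gave 46 rises and 29 falls, which is all 75 listed domain loci per the authors' deposited table. Over all its listed loci 53.5% rose and 43.5% fell past that p, so the listing largely fixes this count. Among domain loci FLAG-ZBTB24 gave 2 falls (background 6.44%) and the knockout 5 rises (background 9.36%) per the authors' deposited tables. Counting loci with 1 symbol left 0 rises for FLAG-ZBTB24, by the loss of the locus shared with MICAL1. Leaving out the domains in NBPF genes, chosen after seeing the data, left 828 domains, a share of 7.97% at starts and a median position of 58.8%.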
